A study of Mus musculus with 6 samples.

Results

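Ccr2 C1q macrophages of mouse soleus are described here. They were chosen cell by cell, as barcodes with at least 200 genes and at most 10% mitochondrial UMIs (unique molecular identifiers) that held a UMI of Ccr2 and of at least 2 of C1qa, C1qb and C1qc. At most 1 of Trem2, Spp1 and Gpnmb and at most 1 of the resident genes Lyve1, Cd163, Vsig4, Fcna, Cd209f and Ccl24 could be detected. Fewer than 3 of the interferon-stimulated genes Ifit1, Ifit2, Ifit3, Rsad2, Mx1 and Cxcl10 were allowed, and no UMI of the lymphocyte, dendritic cell and neutrophil genes Cd3e, Cd79a, Ncr1, Flt3 and Cxcr2. This gave 1280 cells of the 12520 kept, out of 15467 barcodes.

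The study followed the leukocytes of the soleus, a postural muscle of the lower leg, through hindlimb unloading (HU), in which the hind legs bear no weight, and 4-day reload, when the mice walked again for 4 days. All mice were male C57BL/6. Old mice were 20 to 22 months of age and young mice 4 to 5 months of age, and each age gave an ambulatory control, a HU and a 4-day reload group. The 6 groups were old and young control, old and young HU, and old and young reload. Cells were sorted as CD45+ and DAPI-, and each group is 1 10x Genomics 3' library made from the pooled solei of several mice, so no age difference within a treatment has a replicate, and mice cannot be told apart within a library. The labels carry one sequencing run identifier for the control libraries and another for the HU and reload libraries, and submit each treatment under a number of its own, so a difference between treatments cannot be told apart from library preparation. The libraries held 5782054 to 22749375 UMIs. Between 5 and 17 barcodes were shared by pairs of libraries, apart from the control pair with 41, and 16 of the 1280 cells carried such a barcode.

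Monocytes leave the blood through the chemokine receptor CCR2 and mature into macrophages in injured or reloaded muscle. There they clear debris, release cytokines that act on satellite cells, and pass from an inflammatory to a restorative state. C1q, the first component of the classical complement pathway, is made by tissue macrophages and marks this maturation, while a lipid-handling programme with Trem2, Spp1 and Gpnmb appears in macrophages that take up debris. Il10 encodes the main anti-inflammatory cytokine of macrophages.

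The working name of these cells was recruited Ccr2 macrophages without a Trem2 Spp1 programme, marked by Ccr2, C1qa, Ms4a7 and Il10. The data bear out only part of it. Trem2, a lipid receptor, was detected in 769 cells, 60.1% of the total, because the rule allows 1 of the 3 genes. Spp1, which encodes osteopontin, was detected in 90 cells and Gpnmb, a lysosomal glycoprotein, in 3, and 418 cells had none of these genes. Recruitment was not measured, so the cells are called by the genes of the rule. General macrophage genes were present in all 6 libraries. Csf1r, the receptor for the macrophage growth factor CSF1, had 453 to 671 CPM (UMIs of a gene per 1000000 UMIs of the summed cells), and Adgre1, which encodes F4/80, 93.6 to 249 CPM.

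Ccr2 itself, as the rule chose it, had 476 CPM in old and 238 CPM in young control cells. After HU it had 381 CPM in old and 409 CPM in young cells, and at reload 576 CPM in old and 514 CPM in young cells. A single Ccr2 UMI carried 319 of the 1280 cells over the threshold. All 3 C1q genes were detected in 1135 cells. C1qa had 2102 CPM in old reload cells and 2430 CPM in young reload cells.

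Ms4a7, a tetraspanin-like membrane protein of mature macrophages (mm10 chromosome 19, 11321039 to 11336146, minus strand), had 88.6 CPM in old and 84.3 CPM in young control cells. It had 50.8 CPM in old and 35.1 CPM in young HU cells, and 213 CPM in old and 298 CPM in young reload cells. A UMI of it was found in 43.3% of the cells, against 0.470% of T cells, which should lack it. The median depth was 7067.5 UMIs in the macrophages and 3375 UMIs in the T cells.

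Il10 (chromosome 1, 131019845 to 131024974, plus strand) had 14.4 CPM in old and 25.6 CPM in young control cells. No UMI of it was found in the 69 old HU cells, which allows up to 6.93 CPM or 4.35% of cells, and 1 UMI was found in young HU cells. At reload it had 140 CPM in old and 136 CPM in young cells, with a UMI in 25.3% of old and 25.9% of young cells, against 0.659% of T cells. Il10 thus marked a share of the reload cells at both ages and was near its floor after HU. With every cell thinned to 2000 UMIs, leaving out the 78 shallower cells, the shares at reload were 15.7% in old and 14.3% in young cells.

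Most of the cells came from reload. There were 510 in old and 540 in young reload, against 69 in old and 49 in young HU and 60 in old and 52 in young control. They made up 2.28% of kept cells in old control (exact 95% binomial interval 1.74% to 2.93%) and 3.24% in young control (2.43% to 4.23%). After HU the shares were 3.65% in old (2.85% to 4.60%) and 3.23% in young (2.40% to 4.25%). At reload they were 21.0% in old (19.4% to 22.7%) and 22.0% in young (20.4% to 23.7%). Shares at reload stood well above those after HU at both ages, and the intervals, which here and below cover counting error only, did not overlap. A sorted share says nothing of cell number per muscle, and a larger share cannot be told apart from fewer other leukocytes.

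Old and young did not differ in share at reload beyond counting error. The difference, old minus young, was -1.0 percentage points (-3.34 to 1.34). Among C1q macrophages, the cells with 2 of the C1q genes and none of the lineage genes, the cells made up 43.3% in old reload (40.4% to 46.2%) and 41.9% in young reload (39.2% to 44.7%). In HU these shares were 11.5% in old and 8.28% in young, and in control 17.8% in old and 11.6% in young. Depth bears on these shares, since detection of Ccr2 or Trem2 depends on it. The median cell held 6681 UMIs in old reload and 7618 UMIs in young reload, against 6014 UMIs in old HU and 4752 UMIs in young HU. With all cells thinned to 2000 UMIs before the rule was applied, 23.5% of old and 22.3% of young reload cells met it.

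**Figure D1:**
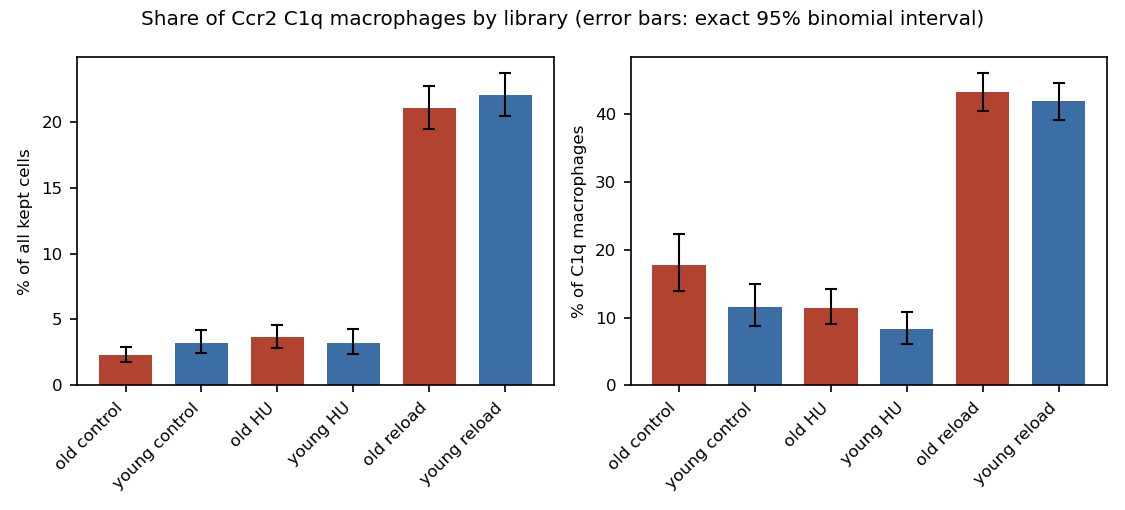
Ccr2 C1q macrophages as a percentage of all kept cells (left axis panel) and of C1q macrophages (right axis panel) in each of the 6 libraries, with exact 95% binomial intervals as error bars, old in red and young in blue. Both reload bars stand at 21.0% and 22.0% of kept cells, far above the 4 other libraries at 2.28% to 3.65%.

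The cells graded into the Trem2 macrophages that the rule left out. Among cells that met every other condition, 414 had 2 of Trem2, Spp1 and Gpnmb and 48 had all 3. The libraries differ in level and in their part of each class, so values are given within the reload libraries, which hold most of the cells. Apoe, which carries cholesterol out of macrophages, had 3035 CPM with none of the genes, 5658 CPM with 1, 9220 CPM with 2 and 16582 CPM with 3 in old reload cells, and 4479, 8834, 11506 and 20118 CPM in the same order in young reload cells. Ms4a7 had 104, 253, 428 and 1078 CPM in old reload cells and 153, 342, 517 and 874 CPM in young reload cells, in that order. Both genes were higher with each further gene detected in both reload libraries. In old control, Apoe had 3000 CPM with none and 1836 CPM with 1, so the order did not hold in every library. Il10 had 159 CPM in old and 149 CPM in young reload cells with 1 gene just inside, and 205 CPM in old and 142 CPM in young with 2 just outside. Retnla, which encodes the secreted protein RELMα of alternatively activated macrophages (chromosome 16, 48842551 to 48844461, plus strand), was lower with 1 gene than with none in 5 of the 6 libraries, such as old reload with 1582 CPM with 1 and 4092 CPM with none. In young reload it had 317 CPM with 1 and 156 CPM with none, but a single cell held a large part of the young reload UMIs of Retnla. Retnla also differed by the resident genes, and cells with 1 resident gene (434 cells) stood above those with none (846 cells) in each of the 6 libraries. At reload it had 3906 CPM with 1 and 1391 CPM with none in old cells, and 834 CPM with 1 and 31.1 CPM with none in young cells.

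The transcriptome was set beside that of 3 like classes of the same libraries, as a description, because the classes were chosen on the same counts. The 667 Trem2 Spp1 Gpnmb macrophages hold at least 2 of those genes. They met the limits on resident, interferon-stimulated and lineage genes, but a UMI of Ccr2 was not required of them. Differences from this class thus cannot be told apart from differences by Ccr2. Of 5731 genes compared in all 6 libraries, 223 were higher and 305 lower in Ccr2 C1q macrophages in every library, and 17 and 29 of these by over 2-fold in the median. Of the lipid and lysosome list, 8 of 17 measured genes were lower in every library, with a median log2 ratio of -0.71, against -0.02 over all genes. The protease Ctsd was lower by a median log2 ratio of -1.41, the lysosomal tetraspanin Cd63 by -1.41 and the synaptic vesicle protein gene Syngr1 by -3.58. Ms4a7 was also lower, by -1.82 (-3.52 to -1.09 over the libraries), as was Igf1, the growth factor for muscle fibres, by -1.69. Retnla was higher by a median of 2.09 (1.31 to 6.59), the lysozyme gene Lyz1 by 1.67 and the nicotinic acid receptor gene Hcar2 by 1.79.

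The 1405 resident-type macrophages, with 2 or more of the resident genes, were compared likewise. Ccr2 was not required of these cells either, so the same limit holds. Of 6162 genes, 379 were higher and 895 lower in Ccr2 C1q macrophages in every library, and all 14 measured genes of the resident list that the rule did not use were lower, with a median log2 ratio of -2.61. The folate receptor gene Folr2 was lower by -3.69, the chemokine gene Ccl8 by -4.64, the phosphatidylserine receptor gene Timd4 by -3.08 and complement C4b by -3.81. Class II genes were higher in 7 of 12, and H2-Aa by a median of 0.90. Glycolysis genes were higher in every library in 11 of 17, with a median of 0.48. The efferocytosis receptor gene Axl (1.28) and the C-type lectin gene Clec4e (1.46) were higher as well.

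The 420 Ly6c2 monocytes held a UMI of Ccr2, of Ly6c2 and of Plac8 or Chil3, and none of the C1q genes. They also met the limits on lineage and resident genes. Of 5250 genes, 756 were higher and 1122 lower in Ccr2 C1q macrophages in each of the 5 libraries with at least 10 monocytes. Among chemokines 12 of 15 were higher. The platelet factor gene Pf4 was higher by a median log2 ratio of 5.81 and Ccl7, a CCR2 ligand, by 4.58. Retnla was higher by 5.47, the mannose receptor gene Mrc1 by 4.23 and the cytokine gene Tnf by 3.63. Ly6c2, the surface antigen of classical monocytes, was lower by -4.00 and the chitinase-like gene Chil3 by -4.29, an order set by the choice of the monocytes. The cells held less of the resident list outside the rule than resident-type cells. They also held less of the monocyte list than monocytes, but Ly6c2, Plac8 and Chil3 chose the monocytes, so that order was partly set beforehand. Retnla was higher than in Trem2 macrophages and than in monocytes.

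**Figure D2:**
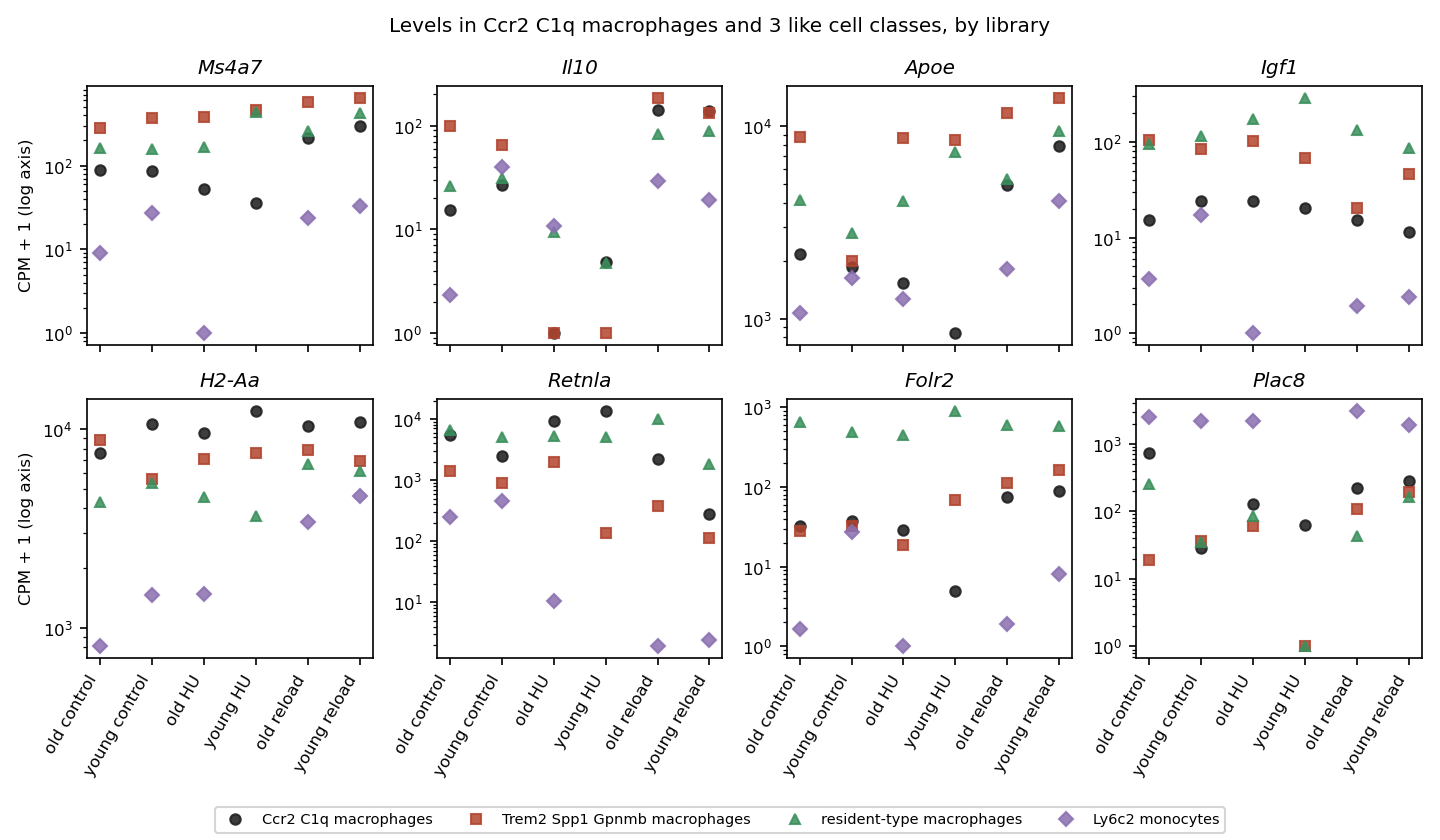
CPM plus 1 on a log axis for 8 genes in Ccr2 C1q macrophages (circles), Trem2 Spp1 Gpnmb macrophages (squares), resident-type macrophages (triangles) and Ly6c2 monocytes (diamonds), 1 point per library with at least 10 cells of the class. Circles lie below squares in every library for Ms4a7, Apoe and Igf1, below triangles for Folr2, and above squares for Retnla.

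Class II genes, which present antigen to CD4 T cells, were abundant, with 2 or more of H2-Aa, H2-Ab1 and H2-Eb1 in 1228 cells. Cd74, the class II chaperone, had 29849 CPM in old and 40822 CPM in young control cells, 37456 CPM in old and 53762 CPM in young HU cells, and 32729 CPM in old and 34869 CPM in young reload cells. Summed neutrophil markers, 9 of 11 detected, ranged from 19.5 to 503 CPM over the libraries, and 12 cells held 2 or more of S100a8, S100a9 and Retnlg. Lymphocyte markers outside the rule, 11 of 12 detected, summed to 64.6 to 117 CPM. Dendritic cell markers, all 11 detected, summed to 616 to 1423 CPM. That list holds Mgl2, a lectin gene that macrophages also express, which had 177 to 756 CPM. It also holds Cd209a, detected in 11.7% of old and 36.5% of young control cells. After HU it was found in 20.3% of old and 20.4% of young cells, and at reload in 9.80% of old and 16.7% of young cells. The paper names Cd209+ and Retnla dendritic cell clusters, and the overlap of the cells with these was not tested.

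Reload was compared with HU across both ages with edgeR's quasi-likelihood test on the 6 summed libraries, which has 2 residual degrees of freedom and whose p-values measure only the spread between these libraries. Of 4751 genes tested, 20 rose (0.421% of genes) and 9 fell (0.189%) at an adjusted p under 0.05, 1196 had an unadjusted p under 0.05, and DESeq2 called 155 of 4157. The median of all genes was 0.01 on the log2 scale. The mix of cells differed, as 42 of 69 old and 29 of 49 young HU cells held 1 resident gene. At reload 166 of 510 old and 154 of 540 young cells did. After HU 32 of 69 old and 27 of 49 young cells held 1 of Trem2, Spp1 and Gpnmb. At reload 346 of 510 old and 390 of 540 young cells held 1 of these. The part of either mix in the results, Ms4a7 and Apoe among them, was not tested. Without the young HU library no gene passed, and 679 had an unadjusted p under 0.05. Without old control 857 genes passed, without young control 755, without old reload 273, without young reload 60 and without old HU 79. In the 418 cells with none of Trem2, Spp1 and Gpnmb no gene of 2452 passed, with 567 at an unadjusted p under 0.05.

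Il10 rose with reload, by a log2 fold change of 6.31 ± 0.70 (SE) with an adjusted p of 0.022. In old mice the 140 CPM of reload were 20.2-fold the 6.93 CPM that a count of 0 allows after HU. That ratio leaves out the counting error of the reload value. In young mice the ratio of 34.8 rests on 1 UMI after HU, with a counting interval of 2.64 to 10.43 on the log2 scale. Of the 17 genes tested on the list of Il10 and restraint of inflammation, no other was called higher by edgeR. At an unadjusted p under 0.05, 3 of the 17 were higher and 6 lower, against 1196 of 4751 genes in either direction. DESeq2 called 4, Il10, Retnla, Socs3 and Tsc22d3. Tsc22d3, a glucocorticoid-induced leucine zipper protein, fell, at 72.5 CPM in old and 132 CPM in young reload, against 263 CPM in old and 413 CPM in young HU (log2 -1.93 ± 0.25, adjusted p 0.039).

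Thbs1, Osm and Ptgs2 rose as well. Thbs1, which encodes the matrix glycoprotein thrombospondin-1 that activates TGF-β, had 562 CPM in old and 1029 CPM in young reload, against 36.9 CPM in old and 27.3 CPM in young HU (log2 4.38 ± 0.41, adjusted p 0.014). Osm, the IL-6 family cytokine oncostatin M, had 108 CPM in old and 148 CPM in young reload, against 6.93 CPM in old and 7.80 CPM in young HU (3.95 ± 0.51, adjusted p 0.039). Ptgs2, the inducible cyclooxygenase, had 137 CPM in old and 165 CPM in young reload, against 13.9 CPM in old and 3.90 CPM in young HU (3.69 ± 0.54, adjusted p 0.043). Every reload library exceeded every HU library for these genes, which adds nothing to a call made on the same libraries. The share of all genes with that order was not counted. Osm and Ptgs2 were the 2 of 11 inflammatory genes that edgeR called, with 6 higher at an unadjusted p under 0.05, and the median of that list was 1.93. Over all genes, 1196 of 4751 had such an unadjusted p, in either direction. DESeq2 called 4 of 10, Osm, Ptgs2, Il1b and Nlrp3. Il1b, the interleukin 1β gene, had 1981 CPM in old and 2999 CPM in young reload, against 515 CPM in old and 129 CPM in young HU, and passed with DESeq2 but not with edgeR (2.73, adjusted p 0.083 with edgeR). Tnf had 668 CPM in old and 646 CPM in young reload, against 563 CPM in old and 199 CPM in young HU (0.69).

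The label marker Ms4a7 rose by 2.34 ± 0.34 (adjusted p 0.043). It was the 1 of 14 macrophage identity genes that edgeR called, with 7 higher at an unadjusted p under 0.05, and DESeq2 called 5, Ms4a7, Apoe, Cd14, Cx3cr1 and Fcgr1. All genes had 1196 of 4751 at that unadjusted p, in either direction. Cd93, a C-type lectin-like receptor, had 151 CPM in old and 163 CPM in young reload, against 30.0 CPM in old and 19.5 CPM in young HU. The integrin gene Itgb5 and the transglutaminase gene Tgm2, both known for a part in the uptake of dead cells, rose by 2.78 and 4.28. Tgm2 had 113 CPM in old and 154 CPM in young reload, against 4.62 CPM in old and 7.80 CPM in young HU, which is 2 UMIs in each HU library. Gdf15, a stress-induced cytokine, had 207 CPM in old and 159 CPM in young reload, against 32.3 CPM in old and 23.4 CPM in young HU (2.51 ± 0.34, adjusted p 0.041). Mefv, which encodes the inflammasome protein pyrin, rose by 2.92, the phosphatase gene Dusp5 by 2.70 and the cytokine receptor chain gene Csf2rb2 by 3.30. The class I gene H2-Q7 (2.83) has near-identical copies among which its reads may be split. Zswim4, Arl4c, B4galt5, Spag9 and the ribosomal RNA-overlapping transcripts Gm42418 and AY036118 rose as well. Gm42418 had 22875 CPM in old and 20928 CPM in young reload, against 4839 CPM in old and 3045 CPM in young HU, so a marker of RNA composition moved with the comparison, and its part in the other results was not tested.

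The genes that fell were led by Sult1a1, a sulfotransferase, at 6.28 CPM in old and 10.4 CPM in young reload, against 73.9 CPM in old and 183 CPM in young HU (log2 -4.04 ± 0.31, adjusted p 0.011). Fkbp5, a chaperone of the glucocorticoid receptor, had 6.54 CPM in old and 10.2 CPM in young reload, against 71.6 CPM in old and 109 CPM in young HU (-3.60 ± 0.29, adjusted p 0.011). Lyz1 had 546 CPM in old and 185 CPM in young reload, against 3505 CPM in old and 3197 CPM in young HU (-3.53 ± 0.38, adjusted p 0.022). It is a near copy of the abundant Lyz2, so some of its reads may be misassigned. Ddit4, an inhibitor of mTORC1, had 12.6 CPM in old and 16.9 CPM in young reload, against 50.8 CPM in old and 187 CPM in young HU. The transcription factor gene Klf9, the cold-inducible RNA-binding protein gene Cirbp, the early response gene Ier2 and the transcriptional regulator gene Lmo1 fell by 2.17, 2.29, 2.24 and 3.50. For Fkbp5 the control libraries lay between, at 24.7 CPM in old and 35.8 CPM in young. Retnla had 2251 CPM in old and 279 CPM in young reload, against 9147 CPM in old and 13483 CPM in young HU, and passed with DESeq2 but not with edgeR (-3.91, adjusted p 0.072 with edgeR). Ier2 was the 1 of 19 early response genes that edgeR called, with 6 lower at an unadjusted p under 0.05, and the median of that list was -0.85. That unadjusted p was met by 1196 of all 4751 genes, in either direction. DESeq2 called 7, Ier2, Dusp2, Egr1, Fos, Jun, Junb and Klf2. Early response genes are also induced while tissue is digested. They summed to 7202 CPM in old and 6792 CPM in young reload, against 11114 CPM in old and 14045 CPM in young HU, and their part in the result was not tested.

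Several of the gene lists held no called gene. Their counts at an unadjusted p under 0.05 stand beside 1196 of 4751 over all genes, in either direction. With edgeR 0 of 15 chemokines were called, although 6 were higher at an unadjusted p under 0.05, and DESeq2 called 3, Ccl3, Ccl7 and Cxcl16. For class II genes the count was 0 of 11, with 2 higher and 3 lower at that unadjusted p and 0 by DESeq2. For glycolysis it was 0 of 17, with 2 higher and 2 lower and 0 by DESeq2, and for oxidative phosphorylation 0 of 23, with 2 lower and 0 by DESeq2. The lipid and lysosome list had 0 of 16, with 6 higher and 2 lower at an unadjusted p under 0.05, and DESeq2 called Ctsl and Fabp4.

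**Figure D3:**
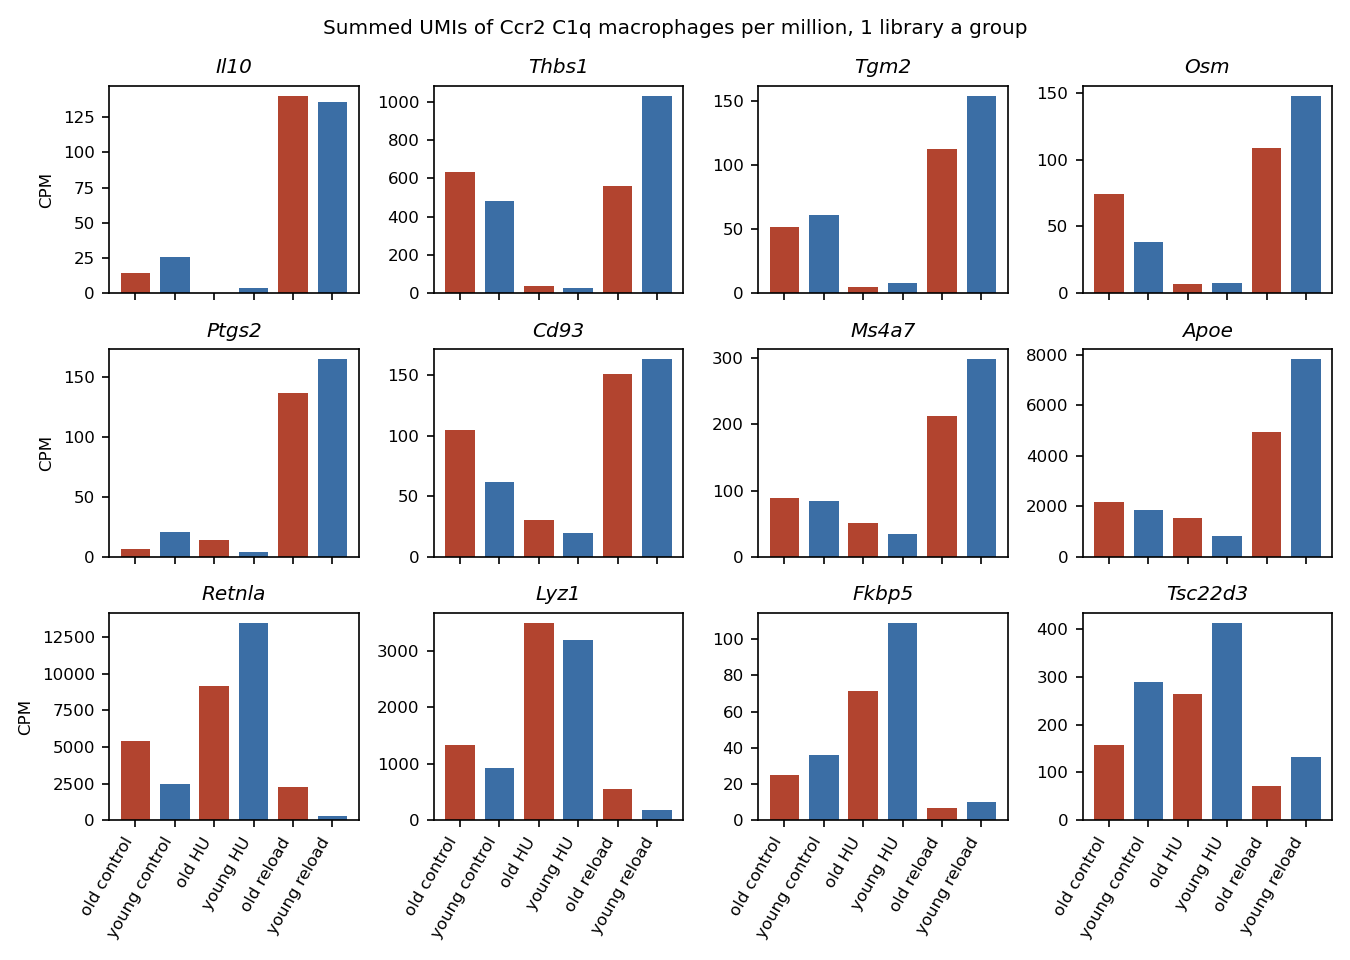
CPM of 12 genes in the summed Ccr2 C1q macrophages of the 6 libraries, 1 bar per library, old in red and young in blue, each panel with its own axis from 0. Il10, Thbs1, Tgm2, Osm, Ptgs2, Cd93 and Ms4a7 are higher in both reload bars than in both HU bars, and Lyz1, Fkbp5 and Tsc22d3 are lower in both.

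Old and young cells at reload held 3820033 and 4329855 UMIs, so this comparison had the most depth, but it sets 1 library against 1 and has no replicate and no test. A gene was called when the libraries were at least 1.5-fold apart and the exact interval of the ratio of counts excluded 1. Of 7517 genes with at least 50 UMIs, 389 (5.17%) were higher and 244 (3.25%) lower in old cells, with a median log2 ratio of 0.01. The split depended on scaling. It was 267 higher and 408 lower per cell without depth scaling, and 486 higher and 194 lower with mitochondrial and ribosomal genes left out of the total. It also turned with the choice of cells, to 150 higher and 191 lower of 3862 genes after thinning to 2000 UMIs and 189 higher and 262 lower of 3906 in cells with none of Trem2, Spp1 and Gpnmb.

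Several monocyte genes were lower in old reload cells. Of 13 measured, 6 were lower and none higher, with a median log2 ratio of -0.35. Ly6c2 had 111 CPM in old and 333 CPM in young reload cells, a log2 ratio of -1.59 (-1.75 to -1.43), Chil3 29.8 CPM in old and 47.6 CPM in young (-0.67), and Clec4e 451 CPM in old and 725 CPM in young (-0.69). Plac8, another monocyte gene, was within the limit, at 221 CPM in old and 282 CPM in young (-0.35). A UMI of Ly6c2, Plac8 or Chil3 was found in 32.9% of old cells (28.9% to 37.2%) and 43.1% of young cells (38.9% to 47.4%). The age order was the reverse in control, with 255 CPM of Ly6c2 in old and 15.3 CPM in young cells, and Plac8 at 735 CPM in old and 28.1 CPM in young.

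Some inflammatory genes were lower in old cells and others were not. Il1b had 1981 CPM in old and 2999 CPM in young cells (-0.60, -0.64 to -0.56), and was detected in 65.3% of old and 74.3% of young cells. The decoy receptor gene Il1r2 (-1.33) and Trem1 (-1.45), an amplifier of inflammatory signals, were the other 2 lower genes of 11. Tnf had 668 CPM in old and 646 CPM in young cells, a ratio of 0.05 (-0.03 to 0.13). Il10 differed by 0.04 (-0.13 to 0.22), and Il1b and Il10 were found together in 19.8% of old and 22.2% of young cells. Among chemokines 2 of 16 were lower. Cxcl3, a neutrophil chemokine, had 58.1 CPM in old and 172 CPM in young cells (-1.56), while the more abundant Cxcl2, at 10847 CPM in old and 11531 CPM in young cells, differed by -0.09 and Ccl2, the main CCR2 ligand, by 0.29.

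Other genes lower in old cells at reload were Acod1, which makes itaconate (12.3 CPM in old and 39.3 CPM in young, -1.67), and the complement genes Cfb (16.5 CPM in old and 52.0 CPM in young, -1.66) and C3 (14.9 CPM in old and 39.0 CPM in young, -1.39). Of 9 complement genes measured outside the rule, 2 were lower and 1 was higher, with a median of -0.13 and ratios up to 1.54. Ly6a had 109 CPM in old and 303 CPM in young cells (-1.47), and Slpi, a protease inhibitor, 45.3 CPM in old and 123 CPM in young (-1.44). Irf7, the interferon regulatory factor, had 98.2 CPM in old and 217 CPM in young cells (-1.14). Thbs1 was lower by -0.87 (-0.95 to -0.80). The neutrophil genes S100a9 (4.19 CPM in old and 79.9 CPM in young, -4.25) and S100a8 (3.67 CPM in old and 65.1 CPM in young, -4.15) had the largest ratios among lower genes with 200 UMIs. They rested on few cells. S100a9 was found in 8 old and 6 young cells, and 1 young cell held 46.2% of its UMIs. After thinning to 2000 UMIs the log2 ratio of S100a9 was 0.30 and that of S100a8 was 0.61. Without the cells that scrublet marked as doublets, S100a9 had 9 UMIs in old and 35 UMIs in young cells, against 16 and 346 with them, and S100a8 had 4 UMIs in old and 32 UMIs in young cells, against 14 and 282 with them, so both genes were under the limit of 50 UMIs. Summed neutrophil markers were 37.2 CPM in old and 190 CPM in young reload cells, and most of the young UMIs of both genes were thus in marked doublets.

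Some glycolysis genes were lower in old cells and the others were within 1.5-fold. Of 17 measured, 4 were lower and none higher, with a median log2 ratio of -0.30. Slc2a1, which encodes the glucose transporter GLUT1, had 51.8 CPM in old and 84.3 CPM in young cells (-0.70, -0.96 to -0.45), and the lactate exporter gene Slc16a3 154 CPM in old and 249 CPM in young (-0.70). Phosphofructokinase Pfkl (-0.73) and phosphoglycerate mutase Pgam1 (-0.59) were the other 2. Hif1a, the hypoxia-inducible regulator of these genes, had 95.5 CPM in old and 136 CPM in young cells (-0.50, -0.70 to -0.31), short of the 1.5-fold limit. The most abundant, Gapdh, had 1975 CPM in old and 2061 CPM in young cells (-0.06), and Ldha differed by -0.19. In control and HU the order was the other way for Slc2a1, at 70.0 CPM in old and 61.3 CPM in young control cells and 39.2 CPM in old and 23.4 CPM in young HU cells. These values rest on few UMIs of 60 old and 52 young control and 69 old and 49 young HU cells. The age order of Slc2a1 there is not resolved. Of 12 glycolysis genes measured in control, 6 were higher in old cells and 0 lower, with a median log2 ratio of 0.53. Over all 2040 genes measured in control, 305 were higher and 149 lower, with a median of 0.14. In HU 0 of 9 glycolysis genes were higher and 1 was lower, with a median of 0.07. Over all 1477 genes measured in HU, 168 were higher and 93 lower, with a median of 0.03. Oxidative phosphorylation genes had a median of 0.06, and 0 of 23 were called. Class II genes had 0 of 12 called, with H2-Aa at -0.05 and Cd74 at -0.09.

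Retnla was among the genes with the largest ratios in old cells at reload. It had 2251 CPM in old and 279 CPM in young cells, a log2 ratio of 3.01 (2.92 to 3.1). It was found in 91 old and 35 young cells, and 1 young cell held 41.5% of the young UMIs. The eosinophil-associated ribonuclease gene Ear2, which has near-identical copies, had 59.2 CPM in old and 12.0 CPM in young cells (2.30), and Lyz1 546 CPM in old and 185 CPM in young (1.56). Retnla, Ear2 and Lyz1 were also among the genes that stood higher in Ccr2 C1q macrophages than in Trem2 macrophages, and their levels were highest after HU. The arginase gene Arg1 had 35.6 CPM in old and 10.9 CPM in young cells (1.71), but was detected in similar shares, 4.90% of old and 4.44% of young cells. Mucl1 had 148 CPM in old and 0.924 CPM in young cells, but its 567 old UMIs came from 8 cells.

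Of 18 lipid and lysosome genes, 5 were higher and 3 lower. Lpl, the lipoprotein lipase, had 176 CPM in old and 49.0 CPM in young cells (1.85, 1.62 to 2.08) and was found in 150 old and 81 young cells. Cd36, the fatty acid and debris receptor, had 113 CPM in old and 43.9 CPM in young cells (1.37), and the elastase gene Mmp12 was higher by 1.44. Fabp5 was lower, at 121 CPM in old and 183 CPM in young cells (-0.60), and so was the cholesterol exporter gene Abcg1 (-0.75). Apoe had 4959 CPM in old and 7828 CPM in young cells (-0.66), and Ms4a7 differed by -0.48 (-0.61 to -0.36). Fabp4, another fatty acid carrier, was higher by 0.78, so genes of one kind lay on both sides. Among growth factors Areg, amphiregulin, had 176 CPM in old and 108 CPM in young cells (0.70), Hbegf was higher by 0.59, and Igf1 had 14.4 CPM in old and 10.4 CPM in young cells (0.47, -0.12 to 1.07).

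The matrix genes with the largest ratios came from a single cell. One old reload cell of 37156 UMIs, 0.973% of the old total, held 610 of the 614 UMIs of Sparc, 310 of 311 of Dcn and 260 of 261 of Col3a1, genes of fibroblasts, together with 5 UMIs of Ccr2 and 21 of C1qa. The doublet caller had not marked it. Without this cell 348 genes were higher and 251 lower, and Mucl1, Retnla (3.02), Ear2 (2.31), Lpl (1.85) and Lyz1 (1.57) had the largest ratios among higher genes with 200 UMIs. Summed endothelial, fibroblast, muscle and red cell markers were 234 CPM in old and 40.9 CPM in young reload cells with it.

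Cell cycle genes were higher in old cells at reload, with 10 of 17 called higher, none lower and a median log2 ratio of 1.26. The proliferation marker Mki67 had 44.5 CPM in old and 16.4 CPM in young cells (1.44), the topoisomerase gene Top2a 24.9 CPM in old and 6.93 CPM in young (1.84) and Birc5, survivin, 34.0 CPM in old and 3.93 CPM in young (3.12). The replication clamp gene Pcna differed by 0.31. Cells with 2 or more of Mki67, Top2a, Birc5 and Cdk1 numbered 29 of 510 old cells (5.69%, 3.84% to 8.06%) and 8 of 540 young cells (1.48%, 0.642% to 2.90%). In control they were 3 of 60 old and 3 of 52 young cells, and after HU 3 of 69 old and 0 of 49 young cells. The median held under each scaling of depth, between 0.78 and 1.31, and was 0.29 after thinning to 2000 UMIs, where 2 of 9 measured genes were higher, 0.28 over the 8 genes with at least 200 UMIs, of which 2 were higher, and 0.15 in cells with none of Trem2, Spp1 and Gpnmb.

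**Figure D4:**
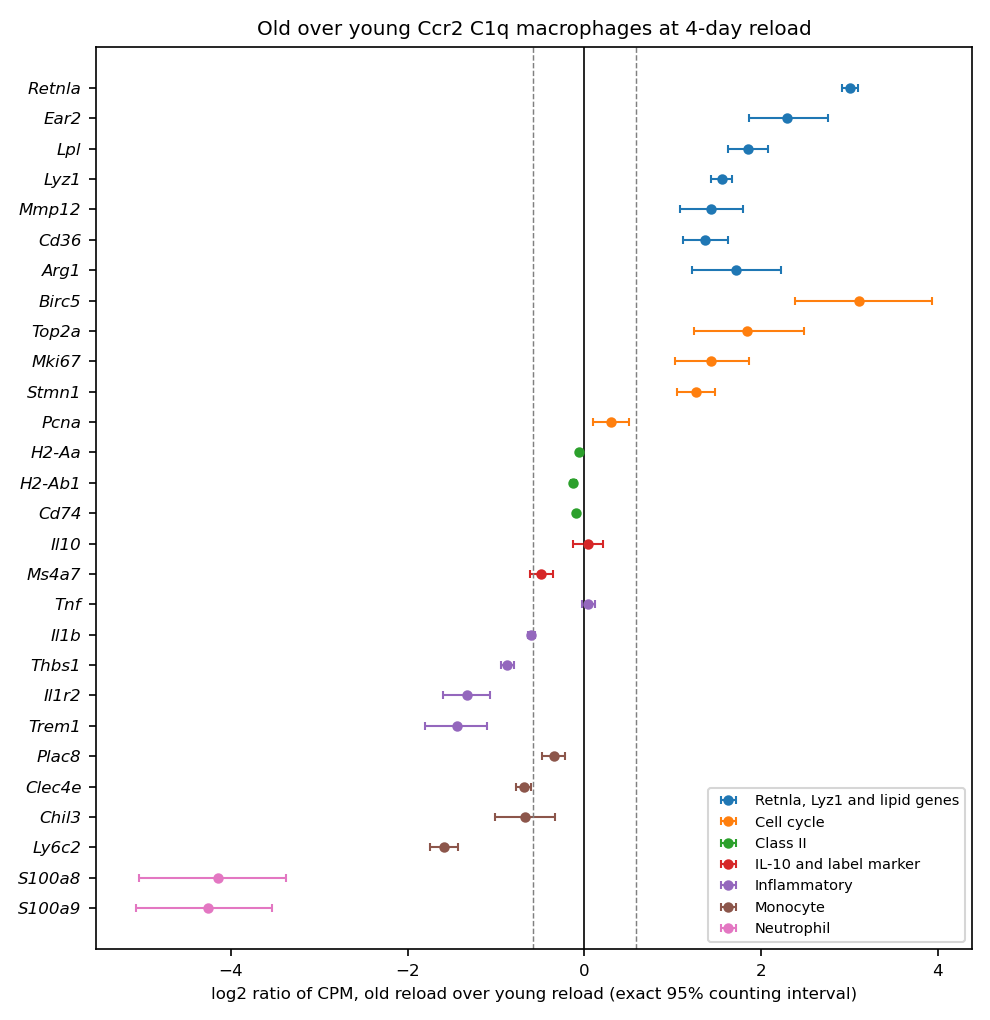
Log2 ratio of CPM of old over young Ccr2 C1q macrophages at 4-day reload for 28 genes, grouped by colour, with exact 95% counting intervals. Dashed lines mark 1.5-fold. Retnla at 3.01 and Birc5 at 3.12 lie farthest to the right, S100a9 at -4.25 farthest to the left, and the class II genes, Il10 and Tnf near 0.

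Age was also tested over the 3 treatments with edgeR, with treatment as a block and the age difference taken as the same in each. No gene of 4751 passed (0%), 86 had an unadjusted p under 0.05, and DESeq2 called 0, with 44 at that unadjusted p. Leaving out old control gave 41 calls, young control 22, young HU 4, old HU 0, old reload 24 and young reload 25. Some genes had the same age order in every treatment. They were named from results on these same libraries, and the share of all genes with such an order was not counted. Tmsb10, an actin-binding peptide, had 6342 CPM in old and 3016 CPM in young control, 5010 CPM in old and 2644 CPM in young HU, and 3853 CPM in old and 3042 CPM in young reload cells (log2 0.72). Cd36 had 173 CPM in old and 107 CPM in young control, 129 CPM in old and 93.6 CPM in young HU, and 113 CPM in old and 43.9 CPM in young reload cells (0.85). Cebpa, a myeloid transcription factor, had 82.4 CPM in old and 112 CPM in young control, 50.8 CPM in old and 97.5 CPM in young HU, and 84.6 CPM in old and 140 CPM in young reload cells (-0.74). These genes kept their order in all 3 treatments without passing the test. Retnla, Ly6c2 and Il1b did not keep it. Il1b had 762 CPM in old and 1460 CPM in young control, but 515 CPM in old and 129 CPM in young HU cells.

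Whether the age difference of these cells differed from that of the other C1q macrophages of the same libraries was tested with edgeR, with library as a block. Of 8213 genes, 10 passed (0.122%), all with a lower old to young ratio in Ccr2 C1q macrophages, 283 had an unadjusted p under 0.05, and DESeq2 called 0, with 63 at that unadjusted p. They were S100a9, S100a8, Hspa1a, Hspa1b, Cxcl2, Cxcl3, Cd209a, Cd209d, Atf3 and Socs3. Without scrublet doublets, an alternative added after seeing the data, 2 genes passed, S100a9 (adjusted p 0.013) and Hspa1a (adjusted p 0.030), and Cd209a did not (adjusted p 0.34). Cd209a, a lectin gene of monocyte-derived dendritic cells that has near-identical relatives, had 24.7 CPM in old and 322 CPM in young control, 106 CPM in old and 164 CPM in young HU, and 72.8 CPM in old and 173 CPM in young reload cells. In the other macrophages it had 156 CPM in old and 218 CPM in young control, 121 CPM in old and 71.6 CPM in young HU, and 56.3 CPM in old and 96.7 CPM in young reload cells. Cd209a was lower in old Ccr2 C1q macrophages in all 3 treatments, and in the other macrophages after HU it was higher in old.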

How the data were processed

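UMI counts per gene and barcode, deposited as whole numbers by the authors, came from Cell Ranger 3.1.0 on mm10, per the submitters' processing notes, which also list Seurat. FACS-sorted soleus cells of 6 groups, 1 pooled library each, were used. Kept barcodes and the rule for the cells are given above. The members and the 25 gene lists were chosen with earlier results of these data known. UMIs were summed per library and scaled to CPM, and member sums were 256465 to 4329855 UMIs. Genes of the rule were left out of tests. Python 3.11.15, numpy 2.4.6, scipy 1.17.1 and pandas 2.3.3 gave exact Poisson and binomial intervals at 95%, scanpy 1.11.5 scrublet doublet scores, which marked 32 members that were kept, and matplotlib 3.10.9 the plots. edgeR 4.0.16 (TMM, quasi-likelihood, Benjamini-Hochberg) and DESeq2 1.42.0 ran in R 4.3.3 and were tested on simulated data. Like cells were compared with 5 CPM added, over genes with 200 UMIs when named. Positions are 1-based, from GENCODE vM21. Named genes were the rule's and label genes, 4 genes with most UMIs and the extremes of each list, the 10 largest each way at reload, the 10 smallest p each way, the 10 largest medians against like cells, and genes the paper names, and only some of these are given. Some genes are not reported here.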

Additional observations from a re-analysis of the deposited data

Results flagged for a closer look

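The age difference of Ccr2 C1q macrophages differed from that of the other C1q macrophages for 10 genes by the edgeR test of the difference itself. Given as the log2 old to young ratio in Ccr2 C1q macrophages minus that in the other macrophages, it was -4.16 for S100a9 (adjusted p 0.00054) and -3.77 for S100a8 (0.0069), both calprotectin subunits. It was -0.86 for Hspa1a (0.0052) and -1.03 for Hspa1b (0.030), near-identical heat shock genes, -0.96 for Cxcl2 (0.0054) and -1.57 for Cxcl3 (0.043), -1.47 for Cd209a (0.018) and -1.77 for Cd209d (0.036), -0.93 for Atf3 (0.035) and -0.80 for Socs3 (0.036). DESeq2 called none of them. Without the cells that scrublet marked as doublets, chosen after seeing the data, edgeR called 2, S100a9 (-3.31, adjusted p 0.013) and Hspa1a (-0.87, adjusted p 0.030), and the other 8 had adjusted p of 0.22 to 0.41. S100a9 then had 9 UMIs in old and 35 UMIs in young reload Ccr2 C1q macrophages, against 16 and 346 with the doublets.

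S100a9 had 183 CPM in old and 66.5 CPM in young control, 0 in old and 3.90 CPM in young HU, and 4.19 CPM in old and 79.9 CPM in young reload Ccr2 C1q macrophages. In the other macrophages it had 1295 CPM in old and 201 CPM in young control, 570 CPM in old and 179 CPM in young HU, and 46.7 CPM in old and 3.88 CPM in young reload. Hspa1a had 472 CPM in old and 5069 CPM in young control, 298 CPM in old and 2753 CPM in young HU, and 231 CPM in old and 234 CPM in young reload Ccr2 C1q macrophages. In the other macrophages it had 686 CPM in old and 4866 CPM in young control, 313 CPM in old and 1522 CPM in young HU, and 315 CPM in old and 184 CPM in young reload. Hspa1a was thus far higher in young than in old cells of both kinds in control and after HU, and not at reload. The part of tissue digestion in the Hspa1a values was not tested.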

How the results depend on the processing

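No paired analysis was possible because each group is 1 library with no replicate numbers, though age was fitted with treatment as a block and the comparison with other macrophages with library as a block. The directions of the 29 genes called between reload and HU were the same in each alternative where they were tested. Of those 29, 20 were called again in cells with 2 or more Ccr2 UMIs, 24 with the mitochondrial limit at 5%, 16 without old HU, 24 without young reload, and 0 without young HU. The number called was 49 at a limit of 20% mitochondrial UMIs, 69 without scrublet doublets, 82 after thinning to 2000 UMIs, 0 in cells with none of Trem2, Spp1 and Gpnmb, 695 with no filter on low counts, 155 with DESeq2, 871 in the 4 HU and reload libraries alone, and 0 to 857 with 1 library left out. It was 67 without shared barcodes and 57 without the fibroblast-transcript cell, both chosen after seeing the data. Age across treatments gave 55 with no filter on low counts and 0 to 41 with 1 library left out. The age difference against other macrophages gave 0 with DESeq2, 2 without scrublet doublets (added after seeing the data) and 11 to 36 with 1 library left out, 30 without young HU, 36 without old HU, 19 without young reload and 20 without old reload. The causes were not tested.

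Old against young at reload gave 150 higher genes after thinning, 189 in cells with none of Trem2, Spp1 and Gpnmb, 686 with a minimum of 10 UMIs and 112 with a minimum of 200, and 408 lower genes without depth scaling and 102 with a minimum of 200 UMIs. Directions turned after thinning for Ccl17 (2.04), Pparg (-0.18), S100a8 (0.61) and S100a9 (0.30). They turned for Col3a1 and Dcn, to -1.39 each without the fibroblast-transcript cell and -0.81 each without the richest cell of each gene, alternatives added after seeing the data. Over treatments the age difference turned for Il10 in cells with none of the 3 genes (0.13) and for Ms4a7 without young reload or old reload (0.17 each, and -0.33 to 0.17 with 1 library left out).

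Shares of kept cells with none of Trem2, Spp1 and Gpnmb were 0.95% in old and 1.25% in young control, 1.96% in old and 1.45% in young HU, and 6.76% in old and 6.12% in young reload. With at least 2 UMIs of Ccr2 they were 1.60% in old and 1.5% in young control, 2.17% in old and 1.91% in young HU, and 16.4% in old and 17.5% in young reload. With at least 1000 genes per cell they were 6.83% in old and 4.76% in young HU, and 24.8% in old and 23.8% in young reload. Thinning gave 23.5% in old reload. The difference in share at reload, old minus young, thus changed sign in 3 alternatives, each within counting error. Control and HU values rest on 49 to 69 cells, so genes near 1 UMI there are not resolved.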
